A study of Mus musculus with 13 samples.

Results

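The COUP-TF orphan receptors and 7 further nuclear receptors were followed through excitatory neurons of the mouse claustrum, a thin sheet of cells beside the cortex. The set held 10 genes, Nr2f1, Nr2f2, Nr2f6, Nr4a1, Nr4a3, Rora, Rorb, Rarb, Rxrg and Esrrg, out of 16575 genes listed in both count tables and 23427 listed in either. The genes were chosen by name, with earlier results of these data known, and all 10 were listed in both tables. Single cells were picked by hand from 4 mature male C57BL/6 mice, and cells with at least 1 count of Snap25, a neuronal gene, and of Slc17a7, the vesicular glutamate transporter of cortical excitatory neurons, were kept, which left 1011 of 1112 cells. In 1 mouse a retrograde virus with GFP, placed in the anterior cingulate cortex, guided the dissection and 238 kept cells were picked blind to it. The sample titles give the plates of this mouse as WT mouse, no projection. In the other 3 mice, the projection mice, green beads were placed in the lateral entorhinal cortex (LEC) and red beads in the retrosplenial cortex (RSC), and 286 LEC-labelled, 247 RSC-labelled and 240 unlabelled cells were kept. All 4 mice carried a tracer and none was left uninjected, and a cell without beads may still project to a target that the beads missed.

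Nuclear receptors are transcription factors that bind DNA through zinc fingers, and many switch their activity when a small lipid-like ligand enters a pocket of the protein. Nr2f1 (COUP-TFI) and Nr2f2 (COUP-TFII) are orphan members that help to set areal and cell type identity in the developing forebrain, and Nr2f6 is their divergent relative. Rarb is a receptor for retinoic acid and Rxrg a retinoid X receptor, the partner with which many nuclear receptors form pairs. Rora and Rorb are ROR factors that share response elements with the clock repressors, Nr4a1 and Nr4a3 are immediate early genes induced by neuronal activity, and Esrrg is an orphan receptor related to the estrogen receptors that acts on genes of energy metabolism.

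The bases just before the annotated starts are shown for the 4 genes on which the results below turn, Nr2f2 with the widest split between the cell classes, Rxrg with the opposite split, and Nr4a1 and Nr4a3, which differed between animals. All were read from RefSeq promoters of the GRCm38.p6 build, where all 10 genes had an entry, and run 5′ to 3′ on the gene's strand. Capitals mark AGGTCA, the half-site that many nuclear receptors bind, and TGACG, the half-site of the cAMP response element, on either strand. The Nr2f2 stretch lies on the minus strand at chr7:70366747-70366996, the Nr4a1 stretch on the plus strand at chr15:101266596-101266845, the Nr4a3 stretch on the plus strand at chr4:48045055-48045152 and the Rxrg stretch, before the downstream of 2 starts, on the plus strand at chr1:167618015-167618264. The Nr4a3 stretch stops after 98 bases, where an annotated exon begins, and the other stretches hold 250 bases.
Nr2f2: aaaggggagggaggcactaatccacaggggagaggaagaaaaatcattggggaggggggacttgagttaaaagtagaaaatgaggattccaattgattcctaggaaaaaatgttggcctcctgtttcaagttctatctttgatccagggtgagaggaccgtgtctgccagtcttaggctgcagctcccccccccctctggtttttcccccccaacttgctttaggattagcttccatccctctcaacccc
Nr4a1: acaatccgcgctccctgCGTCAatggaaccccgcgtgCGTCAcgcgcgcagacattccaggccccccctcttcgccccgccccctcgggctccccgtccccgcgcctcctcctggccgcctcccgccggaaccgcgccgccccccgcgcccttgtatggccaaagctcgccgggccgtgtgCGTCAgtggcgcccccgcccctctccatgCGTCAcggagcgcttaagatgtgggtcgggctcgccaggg
Nr4a3: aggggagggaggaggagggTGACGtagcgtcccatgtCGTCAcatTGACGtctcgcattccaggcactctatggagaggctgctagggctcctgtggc
Rxrg: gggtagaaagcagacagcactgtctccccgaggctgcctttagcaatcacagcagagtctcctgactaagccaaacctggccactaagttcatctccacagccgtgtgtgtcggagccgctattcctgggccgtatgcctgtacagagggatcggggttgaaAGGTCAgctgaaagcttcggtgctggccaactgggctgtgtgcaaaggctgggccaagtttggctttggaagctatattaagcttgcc

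Within the 250 bases before each start, TGACG stood 4 times before Nr4a1 and 4 times before Nr4a3, of which 3 lie in the printed stretch, and before no other start of the 10 genes. Of all 32851 promoters in the table, 17.8% held it at least once. The half-site AGGTCA was found only before the downstream start of Rxrg, 1 of 16 starts of the set, against 14% of all promoters, and there it was part of AAAGGTCA, held by 1.34% of promoters. The full TGACGTCA (1.55% of promoters) and a direct repeat of AGGTCA with 1 base between the copies (0.0335%) were not found in these windows. The Nr2f2 window held none of these letters. The windows before Nr2f1 lie inside annotated exons of the gene and are not printed.

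Each projection plate held 1 label of 1 mouse, except plate 12, which held LEC- and RSC-labelled cells of projection mouse 3, so label and plate cannot otherwise be told apart. Kept cells of the projection mice were sequenced more deeply, with median totals of 138535 to 154261.5 counts against 26023 in the mouse sampled blind. The kept cells divide on Synpr, the gene of the vesicle protein synaptoporin that marks the core of the claustrum. With a limit of 200 CPM (counts scaled to a fixed library total), 438 cells were Synpr-high and 573 Synpr-low, 397 of which had no Synpr count, and only 21 cells lay between 100 and 400 CPM. Of the RSC-labelled cells 213 of 247 were Synpr-high, of the LEC-labelled cells 45 of 286 and of the cells without a label, both kinds of mouse together, 180 of 478. The 8 listed core markers of the claustrum summed to between 5212 and 6516 CPM in Synpr-high cells of each mouse and to between 356.9 and 721.4 CPM in Synpr-low cells, and the 8 shell markers to between 369.3 and 587.9 CPM against between 2136 and 4047 CPM. The 10 deep-layer markers summed to between 17.91 and 45.0 CPM in Synpr-high and between 151.9 and 319.5 CPM in Synpr-low cells.

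Levels below are CPM of counts summed over the cells of 1 mouse, a scale on which levels of different genes are not compared because reads come from the 3′ ends of transcripts. The contrast of Synpr-high with Synpr-low cells was part of how the genes were chosen and is given as a description, with no test. Ratios are log2 of the levels with 0.5 CPM added, as mean ± SD over the 4 mice. Of the 10 genes, Nr2f1 and Nr2f2 were higher in Synpr-high cells with no overlap between the 4 mice's values and Rxrg was lower with no overlap, while 7.17% of 12959 genes over 1 CPM were higher in this way and 9.11% lower. The median log2 ratio was -0.03 over the 10 genes and -0.05 over all 12959. In bulk sums of this kind, fewer cells with a transcript and less RNA per cell cannot be told apart, so shares of cells with a count are given beside the levels where they help. Transcripts of some other cell types differed between the classes. The 6 oligodendrocyte markers summed to 25.4, 335.9, 32.4 and 67.8 CPM in Synpr-high cells of the blindly sampled mouse and projection mice 1, 2 and 3 and to 48.5, 585.3, 544.2 and 103.8 CPM in Synpr-low cells, with Mog, Olig1 and Olig2 at 0 in both classes of the first. The 6 inhibitory markers in the tables were at 0 in both classes of the blindly sampled mouse and summed to 95.5, 5.78 and 143.4 CPM in Synpr-high and 0.751, 5.19 and 33.0 CPM in Synpr-low cells of the projection mice. The astrocyte, microglia and endothelium markers summed to 8.18 CPM or less in each class of each mouse, with no common direction. The part of transcripts of other cell types in the receptor levels was not tested.

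**Figure D1:**
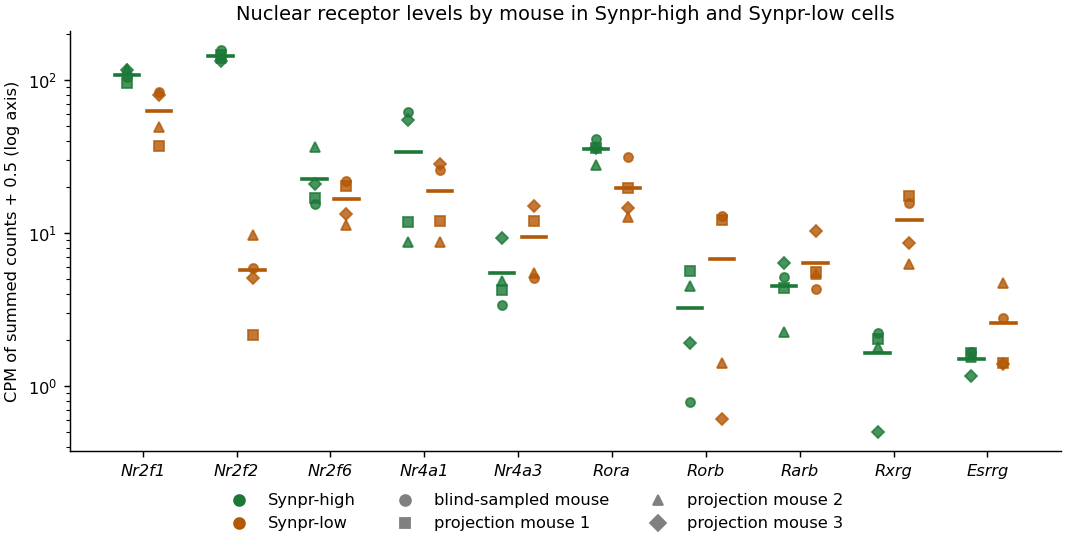
Level of each nuclear receptor in Synpr-high cells (green) and Synpr-low cells (orange), as CPM of summed counts plus 0.5 on a log axis, with 1 symbol for each of the 4 mice and a bar at their mean. Nr2f2 separates the classes most widely, with 132.5 CPM or more in every mouse's Synpr-high cells and 9.18 CPM or less in its Synpr-low cells, and Rxrg runs the other way.

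Nr2f2, an orphan receptor with roles in cell fate, was high in Synpr-high cells of every mouse. It stood at 156 CPM in the blindly sampled mouse and at 145.8, 138 and 132.5 CPM in projection mice 1, 2 and 3. In Synpr-low cells the values were 5.36, 1.66, 9.18 and 4.61 CPM in the same order, so the lowest Synpr-high value was far above the highest Synpr-low value. The means were 143 ± 10.2 and 5.20 ± 3.09 CPM (SD, n = 4 mice) and the log2 ratio was 4.84 ± 0.93. A count of Nr2f2 was seen in 372 of 438 Synpr-high cells (84.9%, exact 95% binomial interval 81.2 to 88.2%) and in 46 of 573 Synpr-low cells (8.03%, 5.94 to 10.6%). These intervals cover counting error only and treat cells of 1 mouse as independent, which they need not be. With each cell thinned to 20000 counts, which kept 927 cells, the shares were 71.4% and 4.03%. Of all Nr2f2 counts in Synpr-low cells, 24.7% came from a single cell, against 1.83% in Synpr-high cells.

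The share of cells with a count of Nr2f2 rose along the Synpr level, in cells not thinned to equal depth. Nr2f2 was seen in 5.29% of 397 cells with no Synpr count, in 10.6% of 132 cells with up to 20 CPM of Synpr and in 25% of 44 cells above 20 and under 200 CPM. Just above the limit, 3 of 8 cells between 200 and under 400 CPM had a count of Nr2f2. The share was 73.3% of 45 cells from 400 to under 1000 CPM, 85.4% of 240 cells from 1000 to under 2000 CPM and 90.3% of 145 cells at 2000 CPM or more. The few cells near the limit leave wide intervals, from 8.52 to 75.5% just above it. The level of Nr2f2 rose less evenly than the share. It was 3.56 CPM with no Synpr count, 2.11 CPM with up to 20 CPM of Synpr and 36.7 CPM from there to the limit. Above the limit it was 111.7, 103.2, 134.0 and 155.9 CPM in order of class. A Synpr level of up to 20 CPM can be seen only in deeply sequenced cells, so the classes also differ in depth.

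**Figure D2:**
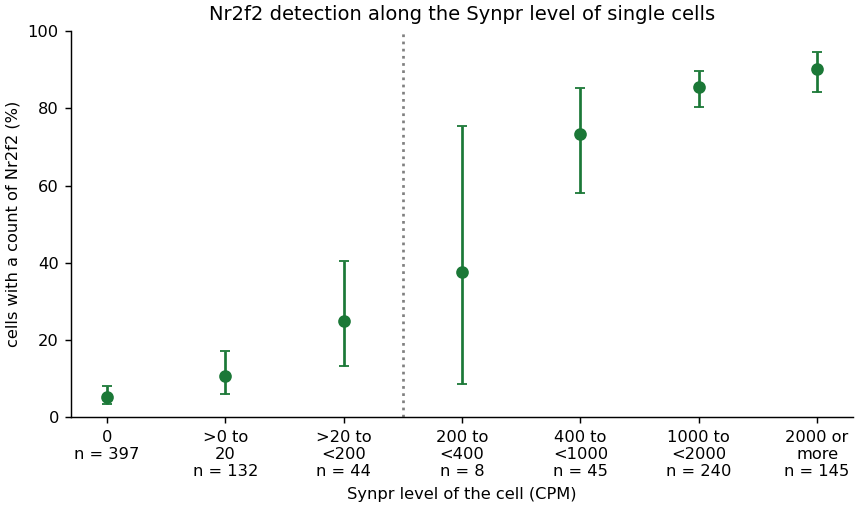
Share of cells with at least 1 count of Nr2f2 (percent, vertical axis) in 7 classes of the cell's own Synpr level (CPM, horizontal axis), with exact 95% binomial intervals and the limit of 200 CPM as a dotted line. The share runs from 5.29% without Synpr to 90.3% at 2000 CPM or more.

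Nr2f1, the sister gene of Nr2f2 with a known part in cortical area patterning, was present in both classes and higher in Synpr-high cells. Its Synpr-high levels were 104.6 CPM in the blindly sampled mouse and 94.75, 117.7 and 115.8 CPM in projection mice 1, 2 and 3, against 83.2, 36.8, 48.9 and 79.0 CPM in Synpr-low cells. All 4 mice had more Nr2f1 in Synpr-high cells, by a factor that was smallest in the blindly sampled mouse, and the ranges did not meet. The means were 108 ± 10.7 and 62.0 ± 22.7 CPM, with a log2 ratio of 0.87 ± 0.51. Nr2f1 had a count in 74.2% of Synpr-high and 48.0% of Synpr-low cells, and in 58.1% and 35.7% after thinning. An antisense gene, A830082K12Rik, overlaps Nr2f1 and was counted separately, and where counting used no strand reads of the pair cannot be told apart.

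The sister genes were seen together in most Synpr-high cells and rarely in Synpr-low cells. Both had a count in 279 of 438 Synpr-high cells (63.7%), Nr2f2 alone in 93, Nr2f1 alone in 46 and neither in 20. Among 573 Synpr-low cells Nr2f1 alone was seen in 249 (43.5%), both in 26, Nr2f2 alone in 20 and neither in 278. In Synpr-low cells Nr2f1 was thus commonly seen without Nr2f2, a combination that held for 10.5% of Synpr-high cells. These joint shares lie close to what the separate detection shares of the genes would give, and a link between the genes within cells was not tested.

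Nr2f6, the divergent relative, showed no common direction. In Synpr-high cells it stood at 15.0 CPM in the blindly sampled mouse and at 16.5, 35.7 and 20.3 CPM in projection mice 1, 2 and 3, and in Synpr-low cells at 21.4, 19.9, 10.9 and 12.9 CPM. It was higher in Synpr-high cells of 2 mice and lower in those of the other 2, with a log2 ratio of 0.39 ± 0.99. Nr2f6 overlaps the coding gene Ocel1, which lies on the opposite strand.

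Of the retinoid receptors, Rxrg, the retinoid X receptor gamma, was seen mainly in Synpr-low cells. Its Synpr-low levels were 15.3 CPM in the blindly sampled mouse and 17.1, 5.77 and 8.15 CPM in projection mice 1, 2 and 3. In Synpr-high cells it stood at 1.73, 1.53 and 1.28 CPM in the first 3 of these mice, and no count was seen in 149 cells of projection mouse 3, which allows a share of cells with a count of up to 2.01% and sets no limit on cells that express the gene below detection. Rxrg had a count in 61 of 573 Synpr-low cells (10.6%, interval 8.24 to 13.5%) and 5 of 438 Synpr-high cells (1.14%, 0.372 to 2.64%). The log2 ratio was -2.97 ± 0.95. Rarb, a receptor for retinoic acid, was at 4.02 ± 1.71 CPM in Synpr-high and 5.88 ± 2.63 CPM in Synpr-low cells, lower in Synpr-high cells of 3 of 4 mice with overlapping values. Rarb overlaps the coding gene Top2b on the opposite strand.

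The ROR genes differed from each other. Rora, which shares response elements with clock repressors, had Synpr-high levels of 40.5 CPM in the blindly sampled mouse and 35.5, 27.4 and 35.3 CPM in projection mice 1, 2 and 3, against 30.9, 19.1, 12.2 and 14.2 CPM in Synpr-low cells. Each mouse had more Rora in Synpr-high cells, with a log2 ratio of 0.92 ± 0.40, but the blindly sampled mouse's Synpr-low value lay above the Synpr-high value of projection mouse 2. Rora was seen in 41.6% of Synpr-high and 20.6% of Synpr-low cells. Rorb, a gene better known from layer 4 of the cortex, was sparse, with a count in 15 of 438 Synpr-high and 28 of 573 Synpr-low cells. Its Synpr-low level was 12.5 CPM in the blindly sampled mouse and 11.7 CPM in projection mouse 1 but 0.913 and 0.111 CPM in projection mice 2 and 3. In Synpr-high cells it stood at 5.18, 4.015 and 1.41 CPM in projection mice 1, 2 and 3 and rested on 1 count in the blindly sampled mouse. The direction was thus split between 2 mice and 2, with a log2 ratio of -0.46 ± 2.72 that was 0.74 without the blindly sampled mouse and 0.44 with a Synpr limit of 100 CPM.

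Esrrg, the estrogen-related receptor, was low in both classes, at 0.999 ± 0.24 CPM in Synpr-high and 2.08 ± 1.58 CPM in Synpr-low cells. A count was found in 8 and 26 cells, and 33.9% of all Esrrg counts of the Synpr-high cells came from 1 cell. It was lower in Synpr-high cells of 3 of 4 mice with overlapping values, with a log2 ratio of -0.60 ± 0.78.

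The immediate early members differed more between mice than between the cell classes. Nr4a1, an activity-induced receptor, stood at 61.0 CPM in Synpr-high cells of the blindly sampled mouse and at 11.3, 8.19 and 54.0 CPM in those of projection mice 1, 2 and 3. In Synpr-low cells the values were 25.3, 11.5, 8.27 and 27.65 CPM. The blindly sampled mouse and projection mouse 3 were thus high in both classes and the other 2 mice low in both. Nr4a1 was higher in Synpr-high cells of the 2 mice with high levels and about equal in the other 2, with a log2 ratio of 0.54 ± 0.66. Nr4a3, its relative, was lower in Synpr-high cells of all 4 mice, at 4.93 ± 2.65 against 8.86 ± 4.88 CPM, with overlapping values and a log2 ratio of -0.74 ± 0.56.

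Nr4a1 also followed the plate. Over the 14 combinations of plate and label its level ran from 5.39 CPM in plate 5 to 68.4 CPM in plate 8. The summed level of 14 activity-regulated genes fixed as a list, such as Fos, Egr1 and Arc, was 789 CPM in plate 5 and 1593 CPM in plate 8. All 6 combinations from projection mice 1 and 2 had Nr4a1 at or under 12.04 CPM and a list sum of 533.3 to 789.1 CPM. The 8 combinations from the blindly sampled mouse and projection mouse 3 had Nr4a1 between 18.95 and 68.4 CPM and a list sum of 807.3 to 1733 CPM. The Nr4a1 and Nr4a3 stretches printed above are those with the TGACG half-sites, which 17.8% of all promoters held. A link between these half-sites and the levels was not tested. The part of handling, sampling time or animal in these levels was not tested, and with plate and mouse nested it cannot be told apart. Nr4a3 was less ordered, with 10.2 and 10.5 CPM at list sums of 545.7 and 574 CPM and 3.26 CPM at a list sum of 1545 CPM.

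**Figure D3:**
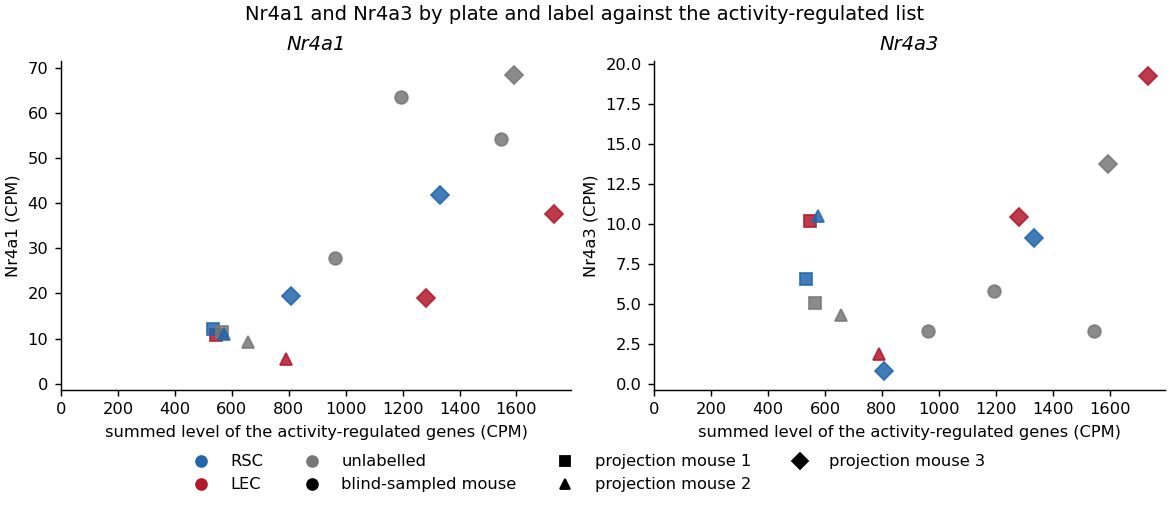
Level of Nr4a1 and Nr4a3 (CPM, vertical axes) against the summed level of 14 activity-regulated genes (CPM, horizontal axes) in each combination of plate and label, with colour for the label and symbol for the mouse. Nr4a1 lies at or under 12.04 CPM in projection mice 1 and 2 and at 18.95 CPM or more in the other mice, while Nr4a3 shows no such step.

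The effect of bead label asked whether neurons that project to the RSC differ in these receptors from those that project to the LEC. Counts were summed per projection mouse and label and fitted with edgeR's quasi-likelihood test over 13976 genes, with Benjamini-Hochberg adjustment. Of the 10 receptors only Nr2f2 was called, higher in RSC-labelled cells, against 3.95% of all genes called (552, of which 264 were higher and 288 lower, and 391, 63 and 59 in all without projection mouse 1, 2 and 3). Nr2f2 stood at 124, 104.6 and 122 CPM in RSC-labelled cells of projection mice 1, 2 and 3 and at 48.7, 34.65 and 19.2 CPM in LEC-labelled cells. All RSC values lay above all LEC values, and the log2 fold change was 1.81 (SE 0.31, edgeR adjusted p = 0.00843). These p-values measure the spread among sums of the 3 mice within each label, unlabelled cells included, without pairing by mouse. Most sums are also 1 plate, so spread between mice and between plates cannot be told apart. The adjusted p rose to 0.131 without projection mouse 2 and to 0.0801 without projection mouse 3, with log2 fold changes of 1.89 and 1.49, and ranged down to 2.16e-08 with DESeq2. Since 213 of 247 RSC-labelled and 45 of 286 LEC-labelled cells were Synpr-high, this contrast largely compares the Synpr classes that were described above, and it is no independent support for them.

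The other receptors did not pass the test. Nr2f1 was higher in RSC-labelled cells of all 3 mice, at 88.1, 118 and 124 CPM against 50.4, 48.4 and 90.6 CPM, with a log2 fold change of 0.83 (SE 0.25, edgeR adjusted p = 0.0996). With DESeq2 it passed (adjusted p = 0.0105) and with cells thinned to equal depth it passed in edgeR as well (adjusted p = 0.0122). Rarb was lower in RSC-labelled cells of all 3 mice, at 3.17 ± 0.47 against 7.88 ± 5.88 CPM (SD, n = 3 mice), and Rxrg was lower in all 3, at 1.07 ± 1.30 against 6.02 ± 5.85 CPM. Their log2 fold changes were -1.28 (SE 0.56, edgeR adjusted p = 0.286) and -2.46 (SE 1.14, edgeR adjusted p = 0.32). Nr2f6 and Nr4a1 were higher in RSC-labelled cells of 3 of 3 mice and Rora and Rorb of 2 of 3, with log2 fold changes of 0.71 (SE 0.35), 0.34 (SE 0.80), 0.67 (SE 0.33) and 0.99 (SE 1.44). Nr4a3 and Esrrg had log2 fold changes of -0.23 (SE 0.68) and -0.56 (SE 1.11), signs that turned with the mouse as a block and without projection mouse 3 for Nr4a3 or projection mouse 2 for Esrrg. Their adjusted p lay at 0.516 or above in every setting.

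The labels were then compared within each Synpr class. Among Synpr-high cells Nr2f2 was at 140.6, 125.2 and 129.2 CPM in RSC-labelled cells and at 154.2, 168.9 and 108.3 CPM in LEC-labelled cells of projection mice 1, 2 and 3, so the LEC values lay on both sides of the RSC values. The log2 fold change was -0.13 (SE 0.49), and the 45 LEC-labelled Synpr-high cells make this a coarse estimate. No gene of 12410 was called by edgeR in this class (0%), and 508 had an unadjusted p under 0.05. That is no more than this threshold gives when no gene differs. DESeq2 called 21 genes, of which none was a receptor of the set. With so few mice and LEC-labelled cells, a lack of calls does not show equal levels. Nr2f1 was higher in RSC-labelled Synpr-high cells of all 3 mice, at 98.2, 126.3 and 128.6 against 94.1, 50.4 and 75.5 CPM, with a log2 fold change of 0.67 (SE 0.50, edgeR adjusted p = 1). Unlabelled Synpr-high cells of the same mice held Nr2f2 at 154.8, 138.6 and 159.3 CPM, which was above both labelled groups in projection mouse 3 and, narrowly, in projection mouse 1.

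Among Synpr-low cells 24 of 12410 genes were called (0.193%), and 7, 0 and 2 without projection mouse 1, 2 and 3. None of the 24 was a receptor of the set. Of the 9 receptors tested in edgeR 2 had an unadjusted p under 0.05, where 1414 of all 12410 genes did. DESeq2 called 1 of the receptors and 293 genes in all. Nr2f2 was low in both groups but higher with the RSC label in each mouse, at 6.17, 26.9 and 5.42 CPM against 1.59, 5.18 and 1.78 CPM, with a log2 fold change of 2.24 (SE 0.59, edgeR adjusted p = 0.171, DESeq2 adjusted p = 0.00409). Only 12, 14 and 8 RSC-labelled cells of projection mice 1, 2 and 3 were Synpr-low, and the RSC-labelled counts of Nr2f2 in projection mouse 1 all came from 1 cell. Nr2f6 was at 30.2, 35.0 and 34.4 CPM in RSC-labelled and at 17.5, 7.18 and 14.4 CPM in LEC-labelled Synpr-low cells, with a log2 fold change of 1.39 (SE 0.51, edgeR adjusted p = 0.308). In this class 5 of the 8 core markers were called by edgeR as higher with the RSC label, against 0.193% of all genes called. DESeq2 called 7 of the 8, all higher with the RSC label. The difference of the label contrast between the classes was called for 8 of 12410 genes (0.0645%) and for no receptor of the set, with -2.37 for Nr2f2 (SE 0.76, edgeR adjusted p = 0.371).

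**Figure D4:**
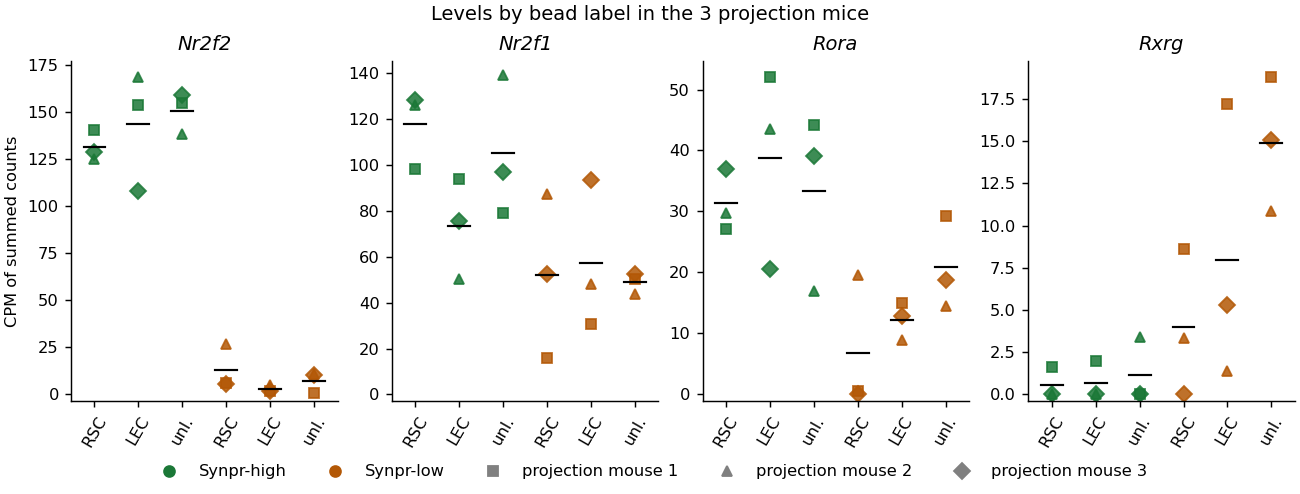
Levels (CPM of summed counts, vertical axes) of Nr2f2, Nr2f1, Rora and Rxrg by bead label (RSC, LEC, or unl. for unlabelled) in Synpr-high (green) and Synpr-low (orange) cells of the 3 projection mice, with a bar at the mean. Nr2f2 lies between 108.3 and 168.9 CPM in every Synpr-high group and at 26.9 CPM or less in every Synpr-low group, whatever the label.

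Plate 12 allowed the labels to be compared within a plate. There Nr2f2 stood at 103.5 CPM in 34 RSC-labelled and 34.9 CPM in 44 LEC-labelled cells, Nr2f1 at 94.6 and 84.45 CPM, Rora at 41.3 and 11.9 CPM, Rarb at 3.12 and 15.9 CPM, and Rxrg at 0 and 4.49 CPM. These 5, and Nr4a1, Nr4a3 and Rorb, had the direction of the fit over mice. Nr2f6 (14.1 and 16.0 CPM) and Esrrg (2.44 and 0 CPM) had the opposite one. Without plate 12 the log2 fold change of Nr2f2 was 2.03 (SE 0.50, edgeR adjusted p = 0.0491). Transcripts of inhibitory neurons were higher with the RSC than with the LEC label. The sum over the 6 of 7 listed markers in the tables was 132.9, 6.8 and 199.2 CPM in RSC-labelled cells and between 0.2452 and 0.9622 CPM in LEC-labelled cells, and Gad1 and Gad2 were at 0 in all 3 LEC sums. Most of each RSC sum was Sst, at 100.1, 6.66 and 137.6 CPM. Unlabelled cells had sums of 0.753, 9.24 and 63.4 CPM, above the RSC value in projection mouse 2. Among all kept cells, 4 had a count of both Gad1 and Gad2. The part of these transcripts in the receptor values was not tested.

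The other nuclear receptors place the set in its family. Of a list of 49 receptor genes 46 were found in either table and 32 exceeded 1 CPM, of which 5 were higher in Synpr-high cells without overlap between mice and 7 lower, where 7.17% and 9.11% of all 12959 genes were. Beside Nr2f1 and Nr2f2, the higher genes were Nr4a2, a claustrum marker, at 1531 ± 127 against 189 ± 66.5 CPM, and Nr1d1 and Ppara. The lower genes included Rxrg with Rxra, the steroid receptors Esr1, Nr3c1 and Nr3c2, and the thyroid hormone receptor Thrb. Rxra stood at 2.12 ± 1.04 against 11.9 ± 2.72 CPM and Esr1 at 0.0945 ± 0.11 against 15.3 ± 9.32 CPM. By bead label 33 of the 49 were tested and 4 called, against 3.95% of all genes, Nr4a2 (log2 fold change 1.58, SE 0.18) and Nr2f2 higher with the RSC label and Esr1 (-4.78, SE 0.96) and Thrb (-1.07, SE 0.24) lower, with edgeR adjusted p of 0.00164, 0.00843, 0.0202 and 0.0316. Thrb failed whenever 1 mouse was left out (adjusted p 0.131 to 0.255), Nr4a2 without projection mouse 2 (0.055) and Esr1 without projection mouse 3 (0.304). The median log2 fold change was 0.0045 over the tested receptors and -0.0013 over all genes.

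Genes that work with the receptors were taken from fixed lists. Of 20 coregulators all were tested by label and 1 was called, where 3.95% of all genes were called. It was Bcl11b, a zinc finger protein that binds COUP-TFs, lower with the RSC label (75.1 ± 35.0 against 235 ± 111 CPM, log2 fold change -1.62, SE 0.40, edgeR adjusted p = 0.0496). That call failed without any 1 of the mice and with other scaling factors (adjusted p 0.0525 to 0.219). Bcl11b was also lower in Synpr-high cells without overlap, at 59.5 ± 25.8 against 260 ± 55.4 CPM, as were Bcl11a, Ncor1, a corepressor, and Ppargc1a, a coactivator of metabolic genes, and Ncoa1, a coactivator, was higher. These were 4 of 20 coregulators lower and 1 higher, where 9.11% and 7.17% of all 12959 genes were. Of 15 retinoid genes 8 were tested and none was called by edgeR, with 3 at an unadjusted p under 0.05 and 2 called by DESeq2. Among all 13976 genes tested in edgeR 2290 had such a p, and DESeq2 called 1145 genes. The 2 retinoid genes called by DESeq2 had the smallest p in edgeR as well. Crabp1, a retinoic acid binding protein, was near 0 with the LEC label (6.31 ± 8.45 against 0.0847 ± 0.11 CPM, edgeR adjusted p = 0.0505, DESeq2 adjusted p = 0.000221), and Aldh1a1, a retinaldehyde dehydrogenase, was at 40.9 ± 21.2 against 14.6 ± 5.99 CPM (edgeR adjusted p = 0.0718, DESeq2 adjusted p = 0.00404). Of the 7 retinoid genes over 1 CPM, 1 was lower in Synpr-high cells without overlap, where 9.11% of all genes were, and none was higher. It was Dhrs3, which reduces retinal, at 1.66 ± 1.61 against 15.5 ± 8.78 CPM.

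Of 16 clock genes all were tested by label and none was called by edgeR, with 6 at an unadjusted p under 0.05 and 3 called by DESeq2. Over all genes these counts were 2290 of 13976 in edgeR and 1145 by DESeq2. Hlf, an output factor of the clock (log2 fold change 0.68, SE 0.20, edgeR adjusted p = 0.103), and Arntl, a core activator (0.79, SE 0.24, adjusted p = 0.114), had the smallest p. Arntl, Dbp and Nr1d1 were higher in Synpr-high cells without overlap, with log2 ratios of 0.95 ± 0.22, 1.02 ± 0.25 and 0.45 ± 0.11. These were 3 of 16 clock genes, where 7.17% of all 12959 genes were higher in this way, and no clock gene was lower. Of 14 activity-regulated genes 13 were tested by label and 1 called, where 3.95% of all genes were called. It was Jun, lower with the RSC label (73.6 ± 10.7 against 242 ± 105 CPM, log2 fold change -1.69, SE 0.30, edgeR adjusted p = 0.0106). Jun was likewise lower in Synpr-high cells without overlap, at 65.4 against 190 CPM. It was 1 of 13 list genes over 1 CPM to be so, where 9.11% of all genes were. The Jun call failed without projection mouse 2 (0.105) and without projection mouse 3 (0.168).

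The Synpr-low cells are mixed, so they were divided by a score of the 8 shell against the 10 deep-layer markers. The score first fixed, on unscaled levels, placed only 29 of 573 cells on the deep side. A score on standardized levels with a limit of -0.75, chosen after the values were seen, placed 117 cells on the deep side and 456 on the shell side, with 22 within 0.25 of the limit, and is used here as a range along the score, not as a cell type. Nr2f2 was at or under 1.02 CPM on the deep side of every mouse and at 1.98 CPM or more on the shell side. It had a count in 5 of 117 deep-side and 41 of 456 shell-side cells, and 25.1% of the shell-side counts came from 1 cell. Rxrg ran the other way, at 37.0, 6.64, 28.1 and 19.3 CPM on the deep side and 5.86, 19.4, 2.07 and 6.97 CPM on the shell side of the blindly sampled mouse and projection mice 1, 2 and 3. It was higher on the deep side in 3 of these 4 mice. Rora was higher on the deep side in each mouse, at 59.75, 31.8, 19.3 and 39.8 CPM against 18.3, 16.2, 11.03 and 11.45 CPM, and over all cells at 33.5 CPM against 34.0 CPM in Synpr-high cells, although 94.2% of its deep-side counts in projection mouse 3 came from 1 cell.

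Rarb was nearly absent on the deep side, with a count in 2 of 117 cells against 55 of 456 on the shell side and 38 of 438 Synpr-high cells. Esrrg had a count in 14 of 117 deep-side cells against 12 of 456 on the shell side, and its deep-side level was 15.6 CPM in projection mouse 2 but 0.387 CPM in projection mouse 3. Nr2f1 was present on both sides, at 44.6 CPM over deep-side and 61.6 CPM over shell-side cells. Rarb and Rxrg thus lay on opposite sides of the score, Rarb towards the shell markers and Rxrg towards the deep-layer markers in 3 of 4 mice. Retinoid receptors outside the set were not examined along the score. In the projection mice the deep-layer markers summed to between 203.0 and 574.9 CPM in unlabelled and between 23.31 and 67.81 CPM in labelled cells. The sides may therefore also differ in label and plate.

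**Figure D5:**
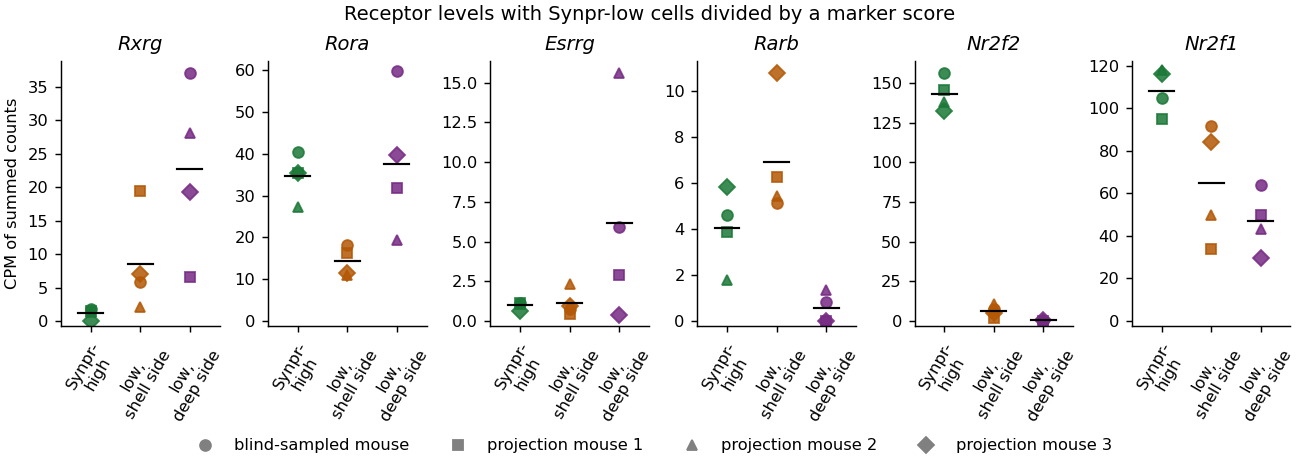
Levels (CPM of summed counts, vertical axes) of 6 receptors in Synpr-high cells and in Synpr-low cells on the shell side and the deep side of a marker score, with 1 symbol for each mouse and a bar at the mean. Rora is higher on the deep side than on the shell side in all 4 mice, Rxrg in 3 of 4, and Nr2f2 and Rarb are near 0 on the deep side.

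Genes with a pattern most like those of the receptors were named by Pearson's r of log2(CPM + 1) over 20 sums of mouse, label and Synpr class, across 12957 genes. The sums share mice and fall into 2 classes, so r is high for any gene that follows Synpr and is given as a description. The genes nearest to Nr2f2 were Oprk1 (0.98), the kappa opioid receptor, Dok7 (0.97) and Rgs12 (0.97), a core marker used here. Those nearest to Nr2f1 were 9430021M05Rik (0.90), Snx25 (0.84) and Fam132a (0.81), and Nr2f1 had 0.61 with Nr2f2. For Rora they were Frmd3 (0.94), Sh3yl1 (0.92) and Rgs16 (0.92), and for the sparse Rorb Gpr126 (0.74), Tcerg1l (0.67) and Scn4b (0.66). Rora had 0.53 with Nr2f2 and Rorb -0.20.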

How the data were processed

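Single-cell RNA sequencing of 1112 hand-picked claustrum cells of 4 mice in 13 plates was used. The authors deposited counts per gene and cell, not normalized, with tables that name each cell's animal and bead label. Reads were tagged to cell barcodes and UMIs and aligned with STAR (version not given in the sources used here), and the submitters' processing notes name NCBIM37. The study gives depth per cell in reads, so the deposited counts were taken as reads. Whether counting used strand is not stated in the sources used here. The 13 plates reuse 368 well barcodes and no cell name occurred more than once.

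The receptors and all lists were chosen with earlier results of these data known. ERCC spike-ins were left out. Cells without a count of Snap25 or of Slc17a7 were removed, and no doublet caller was run on hand-picked cells. Counts were summed per mouse, label and Synpr class (at least 5 cells) and tested in edgeR 4.0.16 (TMM, filterByExpr, quasi-likelihood F test, Benjamini-Hochberg adjusted p under 0.05 called) in R 4.3.3, with DESeq2 1.42.0 as an alternative. Sums share animals, so mouse was tried as a block. Deviations from group means correlated at a median of 0.0356 within mice and -0.0205 between mice. The fits were tested on simulated data. Named genes are the 10 receptors, up to 4 called genes of each fixed list or its 2 with the smallest p, and the 3 genes most like Nr2f1, Nr2f2, Rora and Rorb. Genes of fixed lists whose values in Synpr-high and Synpr-low cells did not overlap were named after their values were seen. Genes with a mean of at least 1 CPM over mice and classes entered counts of non-overlapping genes. Promoters and names of overlapping genes come from GRCm38 annotation, while coordinates of the counted genes are not given.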

Additional observations from a re-analysis of the deposited data

Results flagged for a closer look

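Counts of the COUP-TF genes appeared in cells that were left out of all comparisons. The 4 removed cells with Gad1 and Gad2, markers of inhibitory neurons, held 22 counts of Nr2f1 and 24 of Nr2f2, each in 2 of the 4 cells. A further 4 cells with a count of both Gad1 and Gad2 passed the filter and stayed among the kept cells. Over the 97 other removed cells Nr2f1 had 52 counts in 13 cells and Nr2f2 14 counts in 8 cells. No receptor had a mouse far from the other 3 by Dixon's test in 20 groups, and the difference of the label contrast between Synpr classes passed the test for none of the 10.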

How the results depend on the processing

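The count of genes called by label in all cells was 552 and rose to 1145 with DESeq2, and without 1 mouse it lay between 59 and 391, with 391, 63 and 59 without projection mouse 1, 2 and 3. Within Synpr-high cells it was 0, with 21 by DESeq2 and 5 with no filter on low counts. Within Synpr-low cells it was 24, with 293 by DESeq2, 61 with no filter, 15 with mouse as a replicate block, 12 without plate 12 (chosen after the data were seen) and 0 to 7 without 1 mouse. Of the signs, Nr4a3 by label turned to 0.13 under the replicate block and lay between -0.996 and 0.53 without 1 mouse, and Esrrg turned to 0.37 under the block and lay between -1.54 and 1.71 without 1 mouse. Within Synpr-high cells Nr2f2 lay between -0.28 and 0.037 without 1 mouse and turned to 0.013 with thinned cells and to 0.0042 without plate 12. Within Synpr-low cells Nr2f1 turned to 0.015 without projection mouse 1, lay between -0.86 and 0.40 without 1 mouse and turned to 0.14 with a Synpr limit of 400 CPM. None of these values passed the test, and the cause was not tested. Under the block 539 genes were called in all cells, the Thrb call was lost (-1.06, edgeR adjusted p = 0.0613) and no other named call changed. With other settings 108 of 110 log2 ratios between the Synpr classes moved by less than their SD over mice. For settings without 1 mouse this was fixed in advance, since leaving out 1 of 4 values cannot move a mean that far. A wide SD also hides a change of sign. The ratio of Rorb, with an SD of 2.72, turned to 0.74 without the blindly sampled mouse and to 0.44 with a Synpr limit of 100 CPM. The ratios that moved by more were those of Nr4a3 (-1.73) and Esrrg (-1.47) with unlabelled cells only. The ratio of Nr2f6 was -0.041 without projection mouse 2. The contrast by label rested on 3 mice, with 1 plate for most combinations of mouse and label.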
